A study of Chlorella sp. with 12 samples.

Results

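The transcripts of the glycolytic enzymes of *Chlorella* sp. TLD6B were followed across salinity, PEG-induced drought and culture age. A unigene, the longest transcript of a cluster in an assembly made without a genome, was a member if its KEGG Orthology (KO) identifier was K00844, K01810, K00850, K21071, K00895, K01623, K01803, K15633, K01689 or K00873. The rule found 346 of 155503 unigenes, and 47032 unigenes carried any KO. K21071, an enzyme that makes fructose 1,6-bisphosphate with either ATP or pyrophosphate, was the identifier of no unigene, so 9 of the 10 enzymes could be measured. Total RNA was isolated from strain TLD6B, a green alga grown in BBM medium under a light and dark cycle. For the NaCl groups and the control, the study describes sequencing of the mRNA. Of the 6 groups, CK0 was untreated at day 0 and CK18 was untreated at day 18. The other 4 groups were also sampled at day 18. Nacl1 received NaCl to 0.1 M (low salinity), Nacl2 received NaCl to 0.8 M (high salinity), and PEG-6000 was added as drought stress at 0.05 g/mL in PEG1 and at 0.1 g/mL in PEG2. Each group had 2 libraries. The study calls these biological replicates, but whether they came from separate flasks is not given in the sources used here, so the p-values measure only the spread between such libraries.

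Glycolysis splits glucose phosphate into pyruvate and yields ATP and NADH. In green algae the pathway is divided between compartments: plastid enzymes of the hexose and triose steps also serve the Calvin cycle and starch turnover, while separate cytosolic enzymes carry part of the way to pyruvate. Phosphofructokinase and pyruvate kinase catalyse steps that are close to irreversible in the cell, whereas aldolase, triosephosphate isomerase, phosphoglycerate mutase and enolase work in both directions.

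FPKM (fragments per kilobase of unigene, relative to all mapped fragments of the library) of all unigenes with the same KO were summed in each library. The sums were divided by a library factor, the median ratio of all KO sums to their geometric mean over the 12 libraries, and are called scaled sums below. The factors ran from 0.691 to 1.49. Fold changes are on the scale of log2(scaled sum + 0.1) ± SE from limma with all 12 libraries in 1 fit. An enzyme was called up-regulated or down-regulated at a Benjamini-Hochberg adjusted p under 0.05 over all 3205 KO sums tested and a log2 fold change of 1 or more in size, the fold limit below. Within groups, replicate libraries correlated at 0.967 to 0.990 over the KO sums. Values of single unigenes are given in FPKM as deposited, while their fold changes and tests are after division by library factors taken from the unigenes, so that the sizes of the differences are not equal. With those factors of the unigenes, the median of all KO sums in Nacl2 relative to CK18 moved by 0.66. Fold changes of unigenes and of sums are therefore not on the same scale. Fragment counts were not analysed here, so the depth of single values is unknown. Markers of photosynthesis were high throughout, with deposited sums of at least 23153 FPKM for *rbcS* and at least 2865 FPKM for *psbO*, and unigenes whose best protein hit named a green alga carried 97.9% to 99.8% of the FPKM of the members in every library. In such bulk samples, fewer cells of a kind and less RNA per cell cannot be told apart.

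Among the 9 enzymes, PFP (the pyrophosphate-dependent phosphofructokinase), triosephosphate isomerase, phosphoglycerate mutase and enolase were up-regulated under high salinity and down-regulated from CK0 to CK18. The summed aldolase showed the opposite calls. Both aldolase calls reversed with unigenes of at least 500 bp, to log2 values of 1.37 in Nacl2 and -2.26 in CK18 relative to CK0. With FPKM as deposited, aldolase in Nacl2 was under the fold limit (-0.76). The mutase call in Nacl2 lay close to that limit (1.02) and was lost under some other settings. In the low salinity group, 2 of 9 enzymes were up-regulated and 0 were down-regulated, against 9.52% of all KO sums up-regulated and 7.15% down-regulated. High salinity gave 4 up-regulated enzymes and 1 down-regulated enzyme, where 23.3% and 22% of all KO sums passed. From CK0 to CK18, 4 enzymes were down-regulated (23.2% of all KO sums) and 1 was up-regulated (24.3%). PEG1 gave 1 up-regulated and 0 down-regulated enzymes (13.3% and 12.1% of all KO sums). PEG2 gave 0 of 9 enzymes in either direction, where 5.71% of all KO sums passed, and 2 enzymes had an unadjusted p under 0.05 (24.7% of all KO sums). In direct comparison of the doses, 1 of 9 enzymes was up-regulated and 0 down-regulated in Nacl2 relative to Nacl1 (16.4% and 16.7% of all KO sums) and 0 of 9 passed between PEG2 and PEG1 (15.5% in either direction), where 2 had an unadjusted p under 0.05 (39.7% of all KO sums).

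The median log2 fold change of the 9 enzymes was 0.24 in Nacl1, 0.74 in Nacl2, 0.64 in PEG1 and 0.31 in PEG2, each relative to CK18, and -0.54 in CK18 relative to CK0. The same medians over all KO sums were 0.12, -0.07, 0.05, 0 and -0.07. These comparisons share the CK18 libraries. The division by library factors bears on the counts, since the median of all KO sums moved by 0.94 in Nacl2, 0.62 in Nacl1, 0.56 in PEG1 and -0.90 in CK18 relative to CK0 when FPKM were used as deposited. On the deposited scale, 7 enzymes were called up-regulated and 0 down-regulated in Nacl2, 4 up-regulated in Nacl1, 5 up-regulated in PEG1, and 1 up-regulated and 8 down-regulated in CK18. The median over all KO sums on that scale was itself 0.87 in Nacl2, 0.75 in Nacl1, 0.61 in PEG1 and -0.97 in CK18 relative to CK0. The share of all KO sums called on that scale is not given here, so these counts cannot be read as particular to the 9 enzymes.

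**Figure D1:**
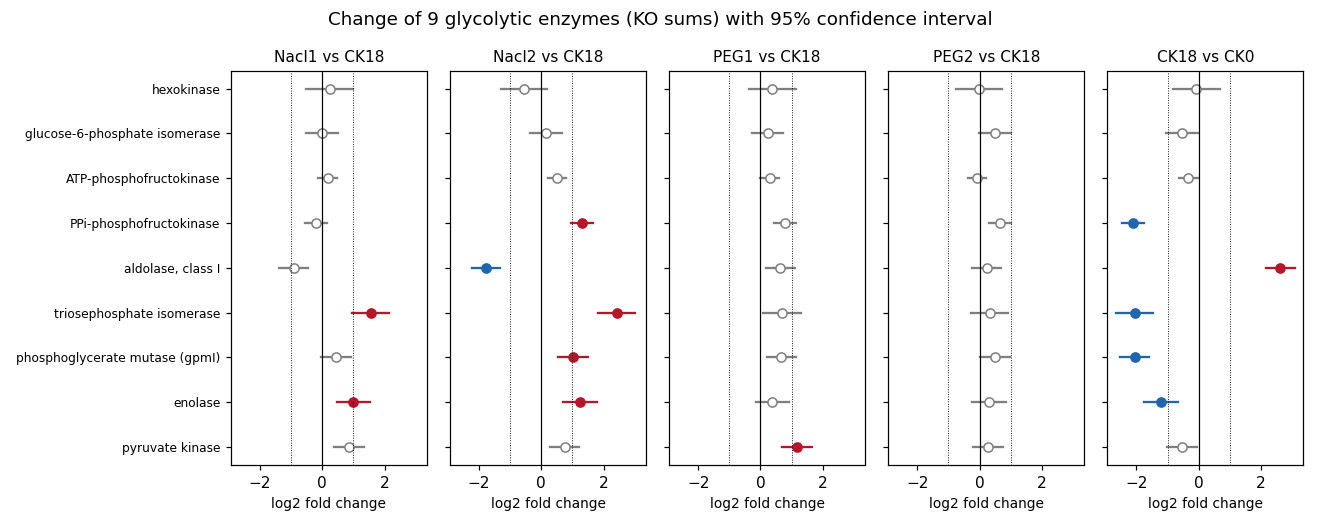
Log2 fold change (x axis) of the 9 enzymes (rows) in 5 comparisons (panels), with lines for the 95% confidence interval and dotted lines at -1 and 1; filled points passed the test, red for up-regulated and blue for down-regulated. Triosephosphate isomerase has the highest point in Nacl2, at 2.42, and aldolase is the only filled point on the right of CK18 vs CK0, at 2.62.

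The enzymes that prepare hexoses for cleavage come first. Hexokinase, which phosphorylates glucose, had 26 unigenes and the lowest level of the 9 enzymes. Its scaled sums were 17.9 and 15.8 in CK0, 16.8 and 15.1 in CK18, 21.5 and 16.4 in Nacl1, 10.2 and 11.4 in Nacl2, 22.5 and 19.3 in PEG1 and 10.5 and 23.4 in PEG2. Both Nacl2 libraries lay below every library of CK0, CK18, Nacl1 and PEG1, while the PEG2 libraries lay far apart. Hexokinase passed the test in none of the 7 comparisons, and the log2 fold change in Nacl2 relative to CK18 was -0.55 (95% interval -1.30 to 0.19, limma with Benjamini-Hochberg adjusted p = 0.18). That direction was not stable to scaling, since the value was 0.45 with FPKM as deposited and 0.16 with library factors taken from the unigenes. The most abundant hexokinase unigene, Cluster-31803.37829, reached a mean of only 3.37 FPKM. The next, Cluster-31803.39773, was listed at 0.07 and 0.72 FPKM in CK0, 3.10 and 3 in CK18 and 0.77 and 0.44 in Nacl2. It was up-regulated in CK18 relative to CK0 (log2 fold change 3.59 ± 0.74, adjusted p = 0.00902, limma with Benjamini-Hochberg adjustment over all 103195 unigenes tested) and down-regulated in Nacl2 relative to CK18 (log2 fold change -2.48 ± 0.74, adjusted p = 0.0417).

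Glucose-6-phosphate isomerase interconverts glucose and fructose phosphates. Its 25 unigenes gave scaled sums of 114 and 147 in CK0, 92.1 and 86.3 in CK18, 107 and 73.9 in Nacl1, 93.4 and 105 in Nacl2, 121 and 90.6 in PEG1 and 136 and 116 in PEG2. The sum passed the test in no comparison, and the log2 fold change in Nacl2 was 0.15 (95% interval -0.36 to 0.66). Single unigenes behaved differently from the sum. Cluster-31803.47275, the most abundant one, held 44.8% of the FPKM and lay between 31.3 and 79.4 FPKM in the 12 libraries. Cluster-31803.42447, by contrast, was listed at 80.4 and 91.0 FPKM in CK0, 1.43 and 2.79 in CK18, 7.90 and 5.80 in Nacl1, 63.7 and 59.8 in Nacl2, 3.75 and 4.97 in PEG1 and 3.76 and 4.35 in PEG2. All CK0 and Nacl2 libraries stood far above the libraries of the other 4 groups. This unigene, whose SwissProt hit is a cytosolic isomerase, was up-regulated in Nacl2 relative to CK18 (log2 fold change 4.60 ± 0.35, adjusted p = 9.29e-05) and relative to Nacl1 (log2 fold change 3.39 ± 0.35, adjusted p = 7.47e-04), and down-regulated in CK18 relative to CK0 (log2 fold change -4.67 ± 0.35, adjusted p = 6.11e-05).

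Fructose 6-phosphate is phosphorylated by an ATP-dependent phosphofructokinase (pfkA) and by a pyrophosphate-dependent enzyme (PFP), which is reversible and saves ATP. The scaled sums of pfkA were 229.5 and 217 in CK0, 166 and 189 in CK18, 202 and 198 in Nacl1, 248 and 254 in Nacl2, 222 and 214 in PEG1 and 164 and 171 in PEG2. Both Nacl2 libraries were the highest, yet the difference from CK18 stayed under the fold limit (log2 fold change 0.50 ± 0.14, adjusted p = 0.00981). With FPKM as deposited or with factors of the unigenes, pfkA passed in Nacl2, at 1.51 and 1.23. Cluster-31803.54985 and Cluster-31803.59522, the most abundant pfkA unigenes, have chloroplastic SwissProt hits and were both up-regulated in Nacl2, at 1.29 ± 0.25 and 1.53 ± 0.26 on the log2 scale.

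PFP differed far more between the groups. Its scaled sums were 479 and 555 in CK0, 125 and 113 in CK18, 107 and 100.5 in Nacl1, 307 and 279 in Nacl2, 215 and 198 in PEG1 and 203 and 172 in PEG2. CK0 was highest, Nacl2 next, the PEG groups followed, and CK18 and Nacl1 were lowest without overlap with any other group. PFP was up-regulated in Nacl2, by 2.46-fold relative to CK18 (log2 fold change 1.30 ± 0.16, adjusted p = 8.01e-05) and by 2.82-fold relative to Nacl1 (log2 fold change 1.49 ± 0.16, adjusted p = 1.82e-04). Between CK0 and CK18 it was down-regulated 4.33-fold (log2 fold change -2.11 ± 0.16, adjusted p = 2.14e-06). In PEG1 and PEG2 the difference from CK18 had an adjusted p of 0.00319 and 0.0351 but remained under the fold limit, at 0.79 and 0.65. Of its 25 unigenes, Cluster-31803.54496 and Cluster-31803.54500 together held most of the FPKM. The first was up-regulated in Nacl2 (log2 fold change 1.99 ± 0.20, adjusted p = 3.48e-04) and so was the other (log2 fold change 2.05 ± 0.19, adjusted p = 2.35e-04).

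**Figure D2:**
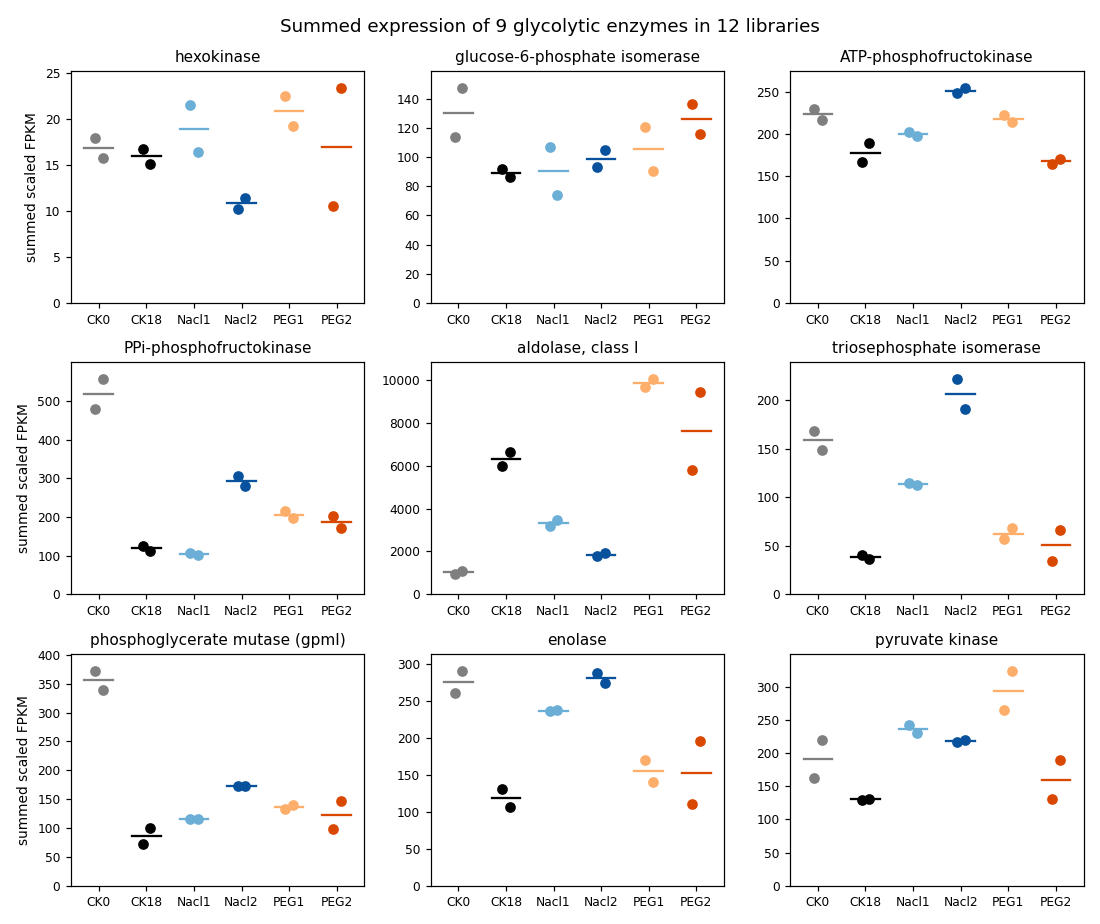
Summed scaled FPKM (y axis, from 0) of each enzyme in its own panel; points are the 12 libraries, grouped on the x axis, and bars are group means. In the PFP panel both CK0 libraries sit at 479 and 555 and both Nacl1 libraries at 107 and 100.5.

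Aldolase of class I splits fructose 1,6-bisphosphate into triose phosphates, and its plastid form also builds that bisphosphate in the Calvin cycle. Summed over 36 unigenes, it had the highest level of the 9 enzymes, with scaled sums of 946 and 1107 in CK0, 5963 and 6652 in CK18, 3176 and 3488 in Nacl1, 1789.6 and 1908 in Nacl2, 9662 and 10019 in PEG1 and 5785 and 9421 in PEG2. PEG1 was highest, CK0 lowest, and the NaCl groups lay between CK0 and CK18 without overlap. Aldolase was down-regulated 3.41-fold in Nacl2 relative to CK18 (log2 fold change -1.77 ± 0.21, adjusted p = 6.57e-05) and up-regulated 6.15-fold in CK18 relative to CK0 (log2 fold change 2.62 ± 0.21, adjusted p = 3.13e-06). With FPKM as deposited the difference in Nacl2 was -0.76, under the fold limit. In Nacl1 the log2 difference from CK18 was -0.92 (adjusted p = 0.00985), also under the fold limit, and it passed that limit when CK18 replicate 1 was left out (-1.01).

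This sum rested on very short unigenes. The 7 aldolase unigenes under 500 bp summed to 569.5 and 608 FPKM as deposited in CK0, 4071 and 4516 in CK18, 2154 and 2153 in Nacl2 and 9599 and 10514 in PEG1. For the 29 unigenes of at least 500 bp, the same sums were 839 and 694 in CK0, 81.1 and 78.4 in CK18, 456 and 408 in Nacl2 and 172 and 185 in PEG1. The short unigenes were lowest in CK0 and the longer ones highest there. When only unigenes of at least 500 bp entered all sums, aldolase was down-regulated in CK18 relative to CK0 (log2 fold change -2.26, adjusted p = 9.58e-06) and up-regulated in Nacl2 (log2 fold change 1.37, adjusted p = 3.95e-04), so both directions turned. Weighting each unigene by its length kept the directions, at 0.99 and -1.10, of which the former was under the fold limit.

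The most abundant aldolase unigenes had chloroplastic hits. Cluster-31803.24730, a unigene of 255 bp with a chloroplastic hit, held 55.8% of the aldolase FPKM. It was listed at 470.0 and 338 FPKM in CK0, 3038 and 2537 in CK18, 1945 and 2239 in Nacl1, 1152 and 1262 in Nacl2, 5627 and 5971 in PEG1 and 2283 and 4049.6 in PEG2. All 10 day 18 libraries were above both CK0 libraries. Cluster-31803.24730 was up-regulated in CK18 relative to CK0 (log2 fold change 3.49 ± 0.29, adjusted p = 9.43e-05) and down-regulated in Nacl2 relative to CK18 (log2 fold change -1.49 ± 0.29, adjusted p = 0.00619). Cluster-31803.94959, of 409 bp, showed the same pair of calls (log2 fold change 3.78 ± 0.25, adjusted p = 3.78e-05, then log2 fold change -1.17 ± 0.25, adjusted p = 0.011). Cluster-31803.75617, of 209 bp, passed in CK18 relative to CK0 (log2 fold change 3.22 ± 0.64, adjusted p = 0.00764) but not in Nacl2. Cluster-31803.63528, of 201 bp, was listed at 0 and 31.8 FPKM in CK0 and 241 and 741 in CK18 and also passed (log2 fold change 8.35 ± 1.95, adjusted p = 0.0156), a value that depends on the pseudocount because 1 library was at 0.

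Longer aldolase unigenes of both compartments were looked at after their values were seen. Cluster-31803.76549, of 2759 bp and with a chloroplastic hit, was listed at 9.76 and 13.5 FPKM in CK0, 37.9 and 36.5 in CK18, 42.8 and 43.5 in Nacl2 and 73.6 and 79.3 in PEG1. It was up-regulated in CK18 relative to CK0, as the short plastid pieces were (log2 fold change 2.38 ± 0.27, adjusted p = 4.65e-04), and had a log2 fold change of -0.07 in Nacl2 (adjusted p = 0.946). A rarer chloroplastic unigene, Cluster-31803.83079, with a mean of 1.35 FPKM, went the other way: it was listed at 3.04 and 6.59 FPKM in CK0 and at 0 in both CK18 libraries, and was down-regulated (adjusted p = 0.00465). Cluster-31803.51843, of 1375 bp and with a cytosolic hit, was listed at 792 and 654 FPKM in CK0, 34.1 and 34.2 in CK18, 147 and 143 in Nacl1, 392 and 345 in Nacl2, 64.1 and 68.5 in PEG1 and 44.9 and 80.3 in PEG2. CK0 was highest and CK18 lowest, and the NaCl groups lay between them in order of dose. This cytosolic unigene was down-regulated in CK18 relative to CK0 (log2 fold change -3.70 ± 0.27, adjusted p = 5.68e-05) and up-regulated in Nacl2 relative to CK18 (log2 fold change 3.14 ± 0.27, adjusted p = 1.66e-04). In PEG1, the cytosolic unigene Cluster-31803.83087 was listed at 11.9 and 17.9 FPKM against 2.79 and 2.44 in CK18 and was up-regulated (log2 fold change 1.97 ± 0.46, adjusted p = 0.0236).

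**Figure D3:**
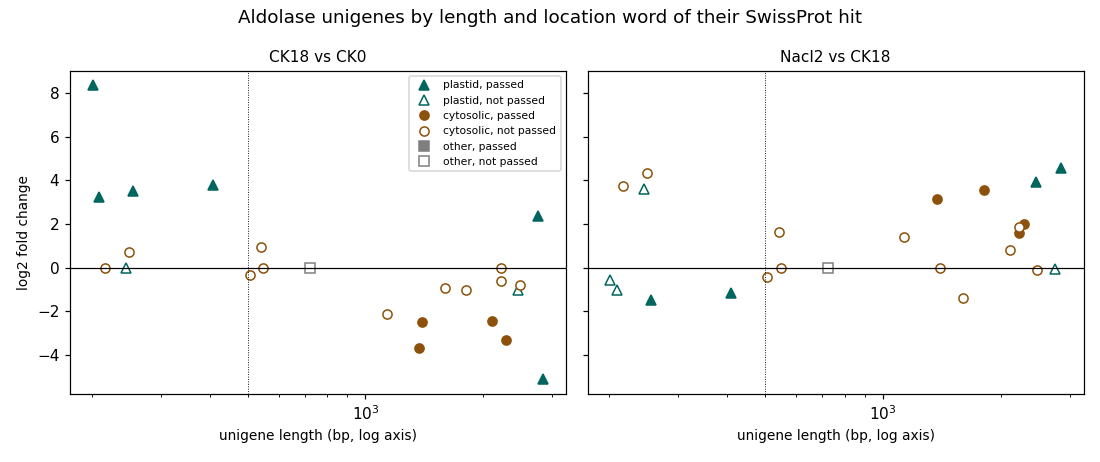
Log2 fold change (y axis) of each tested aldolase unigene against its length (x axis, log scale, dotted line at 500 bp) in 2 comparisons; symbols give the location word of the SwissProt hit, and filled symbols passed the test. The 4 filled plastid unigenes under 500 bp lie above 3 in CK18 vs CK0, while the filled cytosolic ones all lie below 0.

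Triosephosphate isomerase interconverts the trioses that aldolase releases. Its scaled sums were 169 and 149 in CK0, 40.5 and 36.3 in CK18, 115 and 112 in Nacl1, 222 and 191 in Nacl2, 56.7 and 68.0 in PEG1 and 34.6 and 66.3 in PEG2. Both Nacl2 libraries were above all others, Nacl1 and CK0 followed, and CK18 overlapped only with PEG2. It was up-regulated 2.95-fold in Nacl1 (log2 fold change 1.56 ± 0.27, adjusted p = 0.00312) and 5.35-fold in Nacl2 (log2 fold change 2.42 ± 0.27, adjusted p = 5.12e-05), both relative to CK18. The direct difference between the NaCl doses stayed under the fold limit (log2 fold change 0.86 ± 0.27, adjusted p = 0.0247), although it passed with FPKM as deposited (1.21) and with factors of the unigenes (1.43). Between CK0 and CK18 it was down-regulated 4.13-fold (log2 fold change -2.05 ± 0.27, adjusted p = 8.80e-05). Neither PEG group passed, with log2 fold changes of 0.69 in PEG1 (95% interval 0.10 to 1.29) and 0.32 in PEG2 (95% interval -0.28 to 0.92).

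Among the 22 triosephosphate isomerase unigenes, Cluster-31803.69560, with a cytosolic hit and 1001 bp, held 68.2% of the FPKM. It was listed at 214 and 129 FPKM in CK0, 7.50 and 5.59 in CK18, 57.2 and 59.5 in Nacl1, 284 and 218 in Nacl2, 16.7 and 19.6 in PEG1 and 6.12 and 13.3 in PEG2. All NaCl and CK0 libraries lay above every library of CK18, PEG1 and PEG2. Cluster-31803.69560 was up-regulated in Nacl1 (log2 fold change 2.64 ± 0.40, adjusted p = 0.0103) and in Nacl2 (log2 fold change 4.96 ± 0.40, adjusted p = 1.23e-04). In both comparisons this was the largest increase among members that passed the test with at least 10 FPKM in the higher group and no overlap. The next unigene, Cluster-31803.49035, has a chloroplastic hit and was listed at 6.59 and 6.82 FPKM in CK18 and 22.2 and 25.5 in Nacl2 (log2 fold change 1.53 ± 0.33, adjusted p = 0.0114).

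The cofactor-independent phosphoglycerate mutase (gpmI) moves the phosphate group of 3-phosphoglycerate, and enolase then makes phosphoenolpyruvate. Scaled sums of gpmI were 372 and 339 in CK0, 73.0 and 100.3 in CK18, 117 and 116 in Nacl1, 173 and 173 in Nacl2, 133.7 and 139 in PEG1 and 98.6 and 147 in PEG2. CK0 was far above every other group and Nacl2 next, with no overlap between them. The mutase was down-regulated 4.15-fold between CK0 and CK18 (log2 fold change -2.05 ± 0.21, adjusted p = 1.99e-05) and up-regulated 2.02-fold in Nacl2 (log2 fold change 1.02 ± 0.21, adjusted p = 0.00232). The latter call lay close to the fold limit. The value was 0.79 without CK18 replicate 1, 0.93 with length-weighted sums, 0.96 with unigenes of at least 500 bp and 0.86 with green alga hits only, none of which passed. The decrease with age lay mostly in 26 unigenes with the same best protein hit. As deposited, these summed to 413 and 275 FPKM in CK0 and to 8.14 and 14.4 in CK18. Cluster-31803.68564, the most abundant of 38 by mean, was listed at 78.3 and 67.8 FPKM in CK0 and 40.0 and 50.4 in CK18 and did not pass there (adjusted p = 1). Cluster-31803.59792 fell from 168 and 111 FPKM in CK0 to 2.48 and 5.99 in CK18 (log2 fold change -4.42 ± 0.41, adjusted p = 1.78e-04). In Cluster-31803.55077 the decrease was from 45.8 and 42.3 FPKM to values of 0 and 0.11 (log2 fold change -7.77 ± 0.56, adjusted p = 5.40e-05), and in Cluster-31803.55876 from 68.9 and 11.3 FPKM to 0 and 1.29 (log2 fold change -5.70 ± 1.54, adjusted p = 0.0288). Fits for these last unigenes depend on the pseudocount.

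Enolase had scaled sums of 261 and 291 in CK0, 130.8 and 107 in CK18, 236 and 237 in Nacl1, 287 and 274 in Nacl2, 169.9 and 140.3 in PEG1 and 110.2 and 195 in PEG2. Nacl2 and CK0 overlapped at the top, Nacl1 came next, and CK18 overlapped with PEG2 at the bottom. It was up-regulated 2.38-fold in Nacl2 (log2 fold change 1.25 ± 0.24, adjusted p = 0.00158) and down-regulated 2.33-fold in CK18 relative to CK0 (log2 fold change -1.22 ± 0.24, adjusted p = 0.00143). In Nacl1 its fold change of 2.003 stood at the limit (log2 fold change 1.002 ± 0.24, adjusted p = 0.0138). That call held in only 4 of 12 fits with 1 library left out, where the log2 value ranged from 0.85 to 1.14, and the lowest value came without CK18 replicate 2. Of 32 enolase unigenes, Cluster-31803.59334 held 95.5% of the FPKM. It was listed at 85.6 and 68.9 FPKM in CK18, 261 and 239 in Nacl1 and 411 and 359 in Nacl2, without overlap. This unigene was up-regulated in Nacl2 (log2 fold change 2.03 ± 0.28, adjusted p = 0.00131). With factors of the unigenes, the enolase sum itself had a log2 fold change of 1.97 in Nacl2. In Nacl1, 0 of 16 tested enolase unigenes passed, where 1.74% of all unigenes were up-regulated and 2.34% down-regulated.

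Pyruvate kinase, which makes pyruvate and ATP, had the largest number of unigenes, 104. Its scaled sums were 162 and 219.9 in CK0, 129 and 132 in CK18, 243 and 230.5 in Nacl1, 217 and 219.8 in Nacl2, 265 and 324 in PEG1 and 130.2 and 190.4 in PEG2. PEG1 was highest and CK18 lowest, and the CK18 libraries lay below those of PEG1, Nacl1, Nacl2 and CK0. It was the only enzyme of the 9 up-regulated in PEG1, 2.24-fold (log2 fold change 1.17 ± 0.21, adjusted p = 0.00225). In Nacl1 and Nacl2 the differences from CK18 were 0.86 and 0.74 on the log2 scale (adjusted p = 0.015 and 0.0128), under the fold limit, and both passed with FPKM as deposited, at 1.52 and 1.76. PEG2 was lower than PEG1 by a log2 difference under the limit (log2 fold change -0.89 ± 0.21, adjusted p = 0.0134), which passed without PEG1 replicate 1 (-1.04) or without PEG2 replicate 2 (-1.16).

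Cluster-31803.30029, the most abundant pyruvate kinase unigene, was listed at 16.6 and 16.0 FPKM in CK0, 30.5 and 29.7 in CK18, 85.5 and 79.7 in Nacl1, 70.0 and 61.1 in Nacl2, 94.0 and 118 in PEG1 and 25.9 and 25.5 in PEG2. Unlike the sum, it was lowest in CK0. It was up-regulated in PEG1 (log2 fold change 1.32 ± 0.20, adjusted p = 0.00264) and lower in PEG2 than in PEG1 (log2 fold change -1.62 ± 0.20, adjusted p = 0.00104). A cytosolic unigene, Cluster-31803.75598, rose from 8.87 and 6.43 FPKM in CK18 to 72.9 and 61.6 in Nacl1 (log2 fold change 2.62 ± 0.29, adjusted p = 0.00321) and fell from 23.2 and 31.8 FPKM in PEG1 to 7.25 and 5.44 in PEG2 (log2 fold change -1.69 ± 0.29, adjusted p = 0.00675). Chloroplastic Cluster-31803.46432 rose from 3.01 and 4.32 FPKM in CK18 to 38.2 and 58.3 in PEG1 (log2 fold change 3.20 ± 0.51, adjusted p = 0.00369). That was the largest increase in PEG1 among members that passed the test with at least 10 FPKM in the higher group and no overlap. Another chloroplastic unigene, Cluster-31803.36987, was listed at 50.4 and 41.4 FPKM in CK0, 8.19 and 9.49 in Nacl1 and 49.6 and 43.5 in Nacl2, and was up-regulated in Nacl2 relative to Nacl1 (log2 fold change 2.61 ± 0.55, adjusted p = 0.0172).

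Plastid and cytosolic unigenes of an enzyme were also summed apart. The split by the location word of the SwissProt hit was chosen after the values were seen, so its sums are given as a description without a test. Location words were present for 165 of the 346 unigenes, 82 plastid and 83 cytosolic. Cytosolic aldolase (19 unigenes) had scaled sums of 554 and 576 in CK0, 72.5 and 59.5 in CK18, 154 and 159 in Nacl1 and 304 and 289 in Nacl2. Plastid aldolase (9 unigenes) had 391 and 530.2 in CK0, 5890.4 and 6591 in CK18, 3022 and 3328 in Nacl1 and 1486 and 1619 in Nacl2. The log2 differences between CK18 and CK0 were thus -3.10 ± 0.29 for the cytosolic and 3.77 ± 0.27 for the plastid sum. In Nacl2 relative to CK18 they were 2.17 ± 0.29 and -2.01 ± 0.27. With unigenes of at least 500 bp only, cytosolic aldolase kept these signs, at -3.15 and 2.12. Plastid aldolase was then still higher in CK18 than in CK0, at 2.17, and at 1.18 with FPKM as deposited. Its lower level in Nacl2 did not hold for the longer unigenes, since the log2 difference from CK18 was -0.72 with the factors of the KO sums, 0.052 with those of the unigenes and 0.34 with FPKM as deposited. With all lengths the plastid difference in Nacl2 was -1.28 with the factors of the unigenes and -0.99 as deposited.

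Cytosolic triosephosphate isomerase (6 unigenes) had scaled sums of 147 and 113 in CK0, 13.5 and 10.97 in CK18, 55.7 and 58.9 in Nacl1, 196 and 163 in Nacl2, 21.0 and 22.9 in PEG1 and 12.4 and 20.7 in PEG2. The plastid form (12 unigenes) had 26.9 and 24.7 in CK18, 58.6 and 52.8 in Nacl1 and 25.1 and 27.6 in Nacl2, so that it was higher in Nacl1 than in CK18 (log2 difference 1.11 ± 0.35). In Nacl2 the plastid difference depended on the scaling. It was 0.03 ± 0.35 with the factors of the KO sums, 0.75 ± 0.32 with those of the unigenes and 1.04 ± 0.32 with FPKM as deposited, where the sums were 18.8 and 17.0 FPKM in CK18 and 36.5 and 37.1 in Nacl2. The cytosolic difference in Nacl2 was 3.87 ± 0.27, 4.59 ± 0.29 and 4.87 ± 0.30 on the same 3 scales. The plastid sum of pyruvate kinase (30 unigenes) was 10.3 and 16.8 in CK18, 66.8 and 67.9 in Nacl2 and 71.6 and 105 in PEG1, with log2 differences from CK18 of 2.35 ± 0.54 and 2.71 ± 0.54. The cytosolic sum (41 unigenes) differed from CK18 by 0.87 ± 0.26 and 0.77 ± 0.26 in the same groups. Cytosolic minus plastid, the log2 difference was -1.48 ± 0.58 in Nacl2 and -1.94 ± 0.58 in PEG1 but only -0.35 ± 0.58 in Nacl1, where the cytosolic and plastid sums were above CK18 by log2 differences of 1.079 ± 0.26 and 1.43 ± 0.54.

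**Figure D4:**
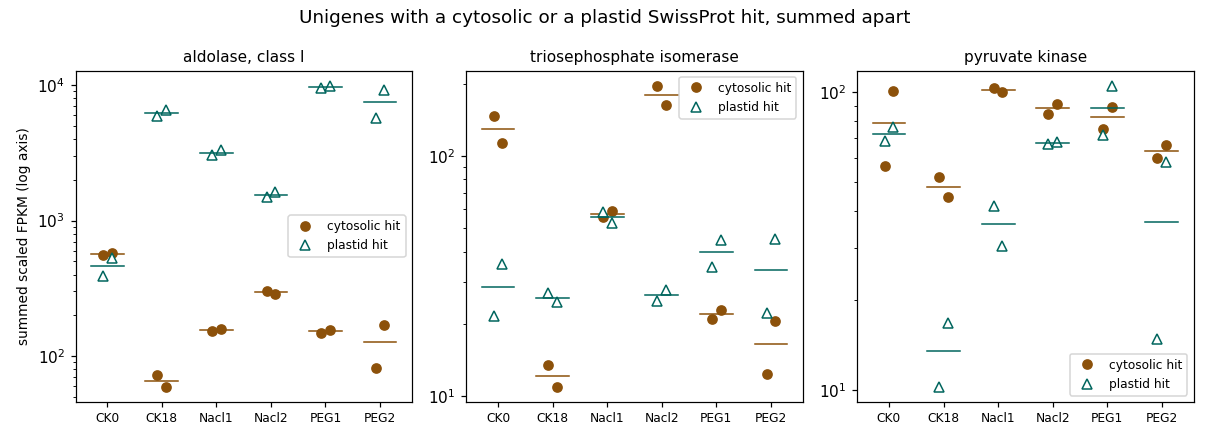
Summed scaled FPKM (y axis, log scale) of unigenes with a cytosolic hit (filled circles) and a plastid hit (open triangles) for 3 enzymes; points are libraries and bars are group means. For aldolase the CK0 libraries lie between 391 and 576 for both compartments, and the CK18 libraries lie near 5890.4 (plastid) and 72.5 (cytosolic).

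At the level of single unigenes, 225 of the 346 members reached 0.3 FPKM in at least 2 libraries and were tested, 121 did not, and 21 of these were listed at 0 in every library. Only 30 had a mean of at least 10 FPKM. In Nacl2, 54 members were up-regulated and 7 down-regulated relative to CK18, where 14.5% and 8.48% of all unigenes passed. Nacl1 gave 7 and 0 (1.74% and 2.34% of all unigenes). PEG1 gave 25 and 0 (8.88% and 4.44%), and PEG2 gave 1 and 0 (0.64% and 0.72%). From CK0 to CK18, 8 members were up-regulated and 50 down-regulated (9.57% and 12.3% of all unigenes). Relative to Nacl1, Nacl2 had 29 members up-regulated and 3 down-regulated (8.4% and 4.61%), and relative to PEG1, PEG2 had 1 and 16 (2.24% and 5.64%). Members that passed the low-value filter through the group where they are high count here, so the counts describe tested unigenes and not all members. These counts depend on single libraries. The shares of all unigenes called with 1 library left out are not given here. The changes below therefore cannot be read as particular to the members. The PEG1 count fell to 3 without PEG1 replicate 1 and to 1 without PEG1 replicate 2, but rose to 38 without PEG2 replicate 2. The Nacl2 count fell from 61 to 37 without Nacl2 replicate 1 and to 34 without Nacl2 replicate 2. The Nacl1 count was 4 or 2 without CK18 replicate 1 or 2, and 3 or 1 without Nacl1 replicate 1 or 2. Relative to Nacl1, the Nacl2 count of 32 fell to between 9 and 11 when any library of these groups was left out, and the count between PEG2 and PEG1 to 0 without either PEG1 library.

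By enzyme, where 14.5% of all unigenes were up-regulated in Nacl2, the call was made for 12 of 65 tested pyruvate kinase unigenes, 8 of 26 for gpmI, 7 of 19 for PFP, 7 of 20 for pfkA, 6 of 24 for aldolase, 5 of 20 for hexokinase, 4 of 16 for triosephosphate isomerase, 3 of 16 for enolase and 2 of 19 for glucose-6-phosphate isomerase. The counts of pyruvate kinase and enolase were near the share of all unigenes, and that of glucose-6-phosphate isomerase was below it. Decreases with age, which 12.3% of all unigenes showed, were most frequent in gpmI, with 13 of 26, and PFP, with 8 of 19, while 0 of 20 pfkA unigenes passed in either direction. All 5 aldolase unigenes up-regulated with age had plastid hits. Members with a best hit outside green algae numbered 73, of which 42 were tested. In PEG1, 8 of these 42 and 17 of 183 green alga members were up-regulated, where 8.88% of all unigenes passed. The part of members with hits outside green algae in the counts was not tested. Some of them had low values in PEG1 only, such as a triosephosphate isomerase unigene listed at 2.18 and 1.40 FPKM there and at 0 in every other library. Of the 22 unigenes that the study lists as hexokinase, phosphofructokinase, pyruvate kinase or triosephosphate isomerase, 18 were up-regulated and 2 down-regulated in Nacl2, 3 and 0 in Nacl1, and 7 and 0 in PEG1. That list was made from these samples and is no independent evidence of direction.

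**Figure D5:**
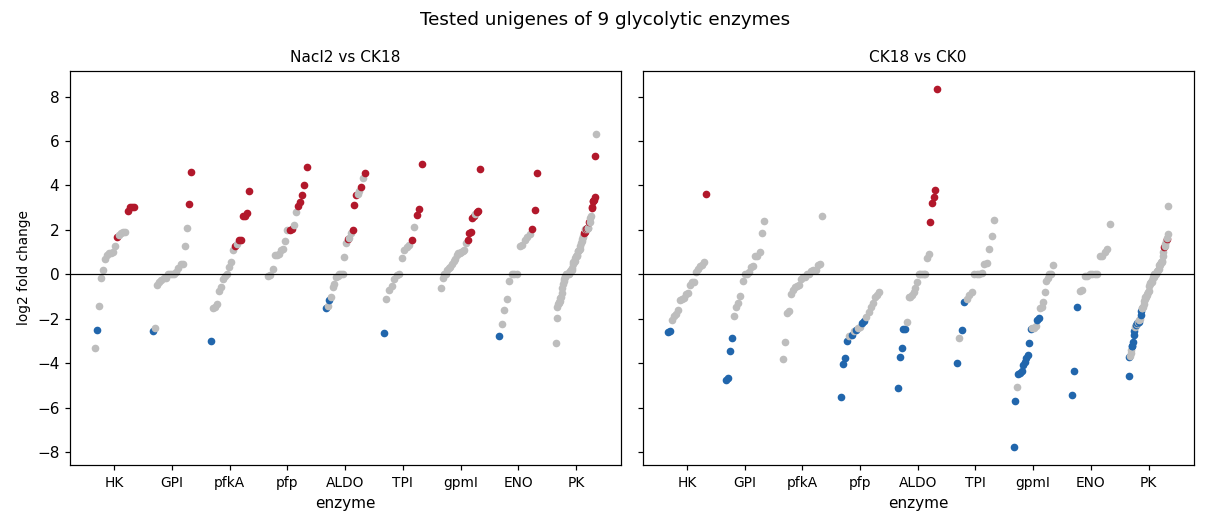
Log2 fold change (y axis) of the 225 tested member unigenes by enzyme (x axis), sorted within each enzyme, in 2 comparisons; red points were up-regulated, blue points down-regulated and grey points did not pass. In Nacl2 vs CK18, 54 points are red and 7 blue, and in CK18 vs CK0, 8 are red and 50 blue.

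Other enzymes of glycolysis that the rule leaves out were read from a list of 19 KO, of which 10 were tested. In Nacl2, 3 were up-regulated and 3 down-regulated, where 23.3% and 22% of all KO sums passed, and in CK18 relative to CK0, 3 and 1 (24.3% and 23.2%). Nacl1 gave 1 and 2 (9.52% and 7.15%), PEG1 gave 1 and 3 (13.3% and 12.1%) and PEG2 gave 0 and 3 (5.71% in either direction). The median log2 fold changes were -0.20 in Nacl2, 0.05 in CK18 relative to CK0, -0.18 in Nacl1, 0.27 in PEG1 and 0.02 in PEG2. Of these, 2 KO were down-regulated in both PEG groups and were named after their values were seen. Aldose 1-epimerase, which interconverts the anomers of sugars, was down-regulated in both PEG1 and PEG2 (log2 fold changes -2.73 and -1.52, adjusted p = 1.20e-04 and 0.00855). The other was glucokinase (K00845), which was down-regulated in all 4 stress groups at a mean sum of only 0.577 FPKM. Glyceraldehyde-3-phosphate dehydrogenase, the step after triosephosphate isomerase, is listed under separate KO for its glycolytic and photosynthetic forms. The phosphorylating glycolytic form (K00134) was up-regulated in Nacl2 (log2 fold change 3.89, adjusted p = 4.75e-06) and down-regulated in CK18 relative to CK0 (log2 fold change -4.25, adjusted p = 7.78e-07). The NADP-dependent form of photosynthetic cells (K05298) was down-regulated in Nacl2 (log2 fold change -3.14, adjusted p = 4.76e-05) and up-regulated in CK18 (log2 fold change 5.43, adjusted p = 8.44e-07). Phosphoglycerate kinase was up-regulated in PEG1 (log2 fold change 1.48, adjusted p = 0.00552), and its difference between PEG2 and PEG1 did not pass (log2 fold change -0.90, adjusted p = 0.065). Of 7 KO of gluconeogenesis, 3 were tested. Pyruvate phosphate dikinase, which runs opposite to pyruvate kinase, was down-regulated in Nacl1, Nacl2 and PEG1 (log2 fold changes -2.25, -3.84 and -2.04) and up-regulated in CK18 relative to CK0 (3.18). Phosphoenolpyruvate carboxykinase was up-regulated in PEG2 (log2 fold change 1.80, adjusted p = 0.00188).

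The order of groups can be read from neighbours in level. For PFP, CK0 exceeded Nacl2 by 0.82 on the log2 scale (adjusted p = 0.00295) and Nacl2 exceeded PEG1 by 0.51 (adjusted p = 0.0222), both under the fold limit. Mutase levels in CK0 exceeded those in Nacl2 by 1.04 (adjusted p = 0.00426), the only neighbours among the 9 enzymes that passed both thresholds. For enolase, Nacl2 and CK0 were not told apart (log2 difference 0.03, adjusted p = 0.952), nor were they for triosephosphate isomerase (0.37, adjusted p = 0.292). For hexokinase, glucose-6-phosphate isomerase, pfkA and pyruvate kinase, no pair of neighbours had an adjusted p under 0.05.

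Over the 12 libraries, which share groups and library factors, the log2 scaled sums of triosephosphate isomerase and enolase had a Pearson r of 0.957, those of PFP and gpmI 0.881, and those of aldolase and triosephosphate isomerase -0.809. Hexokinase was the member least like the mean profile of the 9 enzymes among those with a positive r (0.236), and aldolase had a negative one (-0.436). Outside the members, 2235 KO sums had a mean of at least 10 FPKM. The profiles most like the mean of the members were those of K14575, an AAA family ATPase (r = 0.986), K11366, a ubiquitin carboxyl-terminal hydrolase (r = 0.975), and K08776, a puromycin-sensitive aminopeptidase (r = 0.971).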

How the data were processed

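RNA-seq libraries of 6 groups with 2 libraries each were analysed. The authors trimmed 150-bp paired reads, assembled them without a genome (Trinity), clustered transcripts into unigenes (Corset), aligned with Bowtie 2, counted with RSEM and deposited FPKM values per unigene and library, unpooled. The deposited annotation gave KO, best protein hits and unigene length (bp). Fragment counts were not analysed here, so no counting error is given, and unigenes from the same or similar genes can share reads.

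FPKM were summed by KO, divided by median-ratio library factors and tested as log2(value + 0.1) with limma 3.58.1 in R 4.3.3 (with the data.table package, version 1.17.8; intensity trend, two-sided, all 12 libraries in 1 fit), as were single unigenes. Features with at least 0.3 FPKM in at least 2 libraries were tested, with Benjamini-Hochberg adjustment over all of them. All adjusted p-values come from limma. Calls needed an adjusted p under 0.05 and a log2 fold change of at least 1 in size. Figures were drawn with matplotlib 3.10.9 in Python 3.11.15. The script was tested on simulated data.

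Named unigenes were the 2 most abundant per enzyme and, per comparison, the 2 largest increases and the 2 largest decreases among called members with at least 10 FPKM in the higher group and no overlap. Others are stated as chosen after their values were seen. The members, lists and tests were chosen with earlier results of these data known. Alternatives changed the pseudocount, low-value filter, scaling, samples fitted, replicate block, length weighting, minimum length, taxon, fold limit and libraries, and sums by location were added after seeing the data.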

Additional observations from a re-analysis of the deposited data

How the results depend on the processing

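The 9 enzymes gave 2 calls in Nacl1, 5 in Nacl2, 1 in PEG1, 0 in PEG2, 5 in CK18 relative to CK0, 1 in Nacl2 relative to Nacl1 and 0 in PEG2 relative to PEG1. In Nacl1 the count was 1 with a pseudocount of 1, with separate fits or with unigenes of at least 500 bp, and 4 with FPKM as deposited or no fold limit. With FPKM as deposited it was also 9 in CK18 relative to CK0, 5 in PEG1, 2 in Nacl2 relative to Nacl1 and 1 in PEG2 relative to PEG1. Factors of the unigenes gave 3 in Nacl2 relative to Nacl1 and 1 in PEG2 relative to PEG1, and length weighting gave 1 in the latter. In Nacl2, pfkA and pyruvate kinase gained a call with FPKM as deposited, with factors of the unigenes and without a fold limit. Glucose-6-phosphate isomerase gained a call there and aldolase lost its call with FPKM as deposited. The mutase lost its call in Nacl2 with length weighting, unigenes of at least 500 bp or green alga hits only. In Nacl1, pyruvate kinase gained a call with factors of the unigenes and with length weighting. Without a fold limit there were 4 calls in PEG1, 4 in Nacl2 relative to Nacl1, 1 in PEG2 and 1 in PEG2 relative to PEG1. The shares of all KO sums called under these settings are not given beside the counts. Leaving out 1 library gave 1 to 3 calls in Nacl1 and 0 to 1 in PEG2 relative to PEG1. Of 756 values of single enzymes with 1 library left out, 744 kept their call status, 9 lost and 3 gained a call. Among values called in either fit, 0 changed direction, while 16 values called in neither fit changed sign. Summed aldolase reversed with unigenes of at least 500 bp, to -2.26 in CK18 relative to CK0 and 1.37 in Nacl2. That setting removes the 7 short unigenes that hold most of the sum. The split by location was chosen after the values were seen, so the thresholds only sort its values here and are no test. The share of all sums by location past the thresholds is not given. Of 56 values by location, 38 kept their side of both thresholds with FPKM as deposited, 15 went past them and 3 fell short. Among values past both thresholds in either setting, 0 changed sign. With factors of the unigenes these counts were 48, 6, 2 and 0. Values that stayed short of the thresholds could change sign: cytosolic glucose-6-phosphate isomerase in Nacl1 moved from -0.03 to 0.64 as deposited. Plastid aldolase of at least 500 bp reversed in Nacl2, to 0.34 as deposited and 0.052 with factors of the unigenes, and in Nacl2 relative to Nacl1, to 0.12 with the latter.

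Among single unigenes, requiring a mean of at least 1 FPKM gave 38 called members in CK18 relative to CK0, 40 in Nacl2, 14 in PEG1 and 5 in PEG2 relative to PEG1. FPKM as deposited gave 14 in Nacl1 and 44 in PEG1, and separate fits gave 13 in Nacl1. Summing unigenes with the same best protein hit gave 17 in CK18 relative to CK0, 4 in Nacl1, 23 in Nacl2, 16 in Nacl2 relative to Nacl1, 12 in PEG1, 0 in PEG2 and 10 in PEG2 relative to PEG1, where unigenes without a KO or hit stayed single in the same fit. Testing only the 12151 such sums, an alternative chosen after seeing the data, gave 20, 7, 27, 17, 15, 0 and 11 in the same order. In PEG2 the count was 0 with a pseudocount of 1 or separate fits and 2 without a filter. In PEG2 the count was also 0 without CK18 replicate 1 or PEG2 replicate 2 and 2 without CK18 replicate 2. Leaving out 1 library gave 1 to 10 in Nacl1, 34 to 65 in Nacl2, 1 to 38 in PEG1, 0 to 2 in PEG2, 39 to 66 in CK18 relative to CK0, 9 to 39 in Nacl2 relative to Nacl1 and 0 to 25 in PEG2 relative to PEG1. The shares of all unigenes called under these settings are not given beside the counts. The counts therefore cannot be read as particular to the members. The causes were not tested.

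The replicate numbers of the labels showed no consistent pairing of the libraries. Deviations of libraries with the same number correlated at -0.19 to 0.43 over KO sums (median -0.0024) and -0.04 to 0.09 over unigenes (median 0.0067). These values cannot tell whether some of the groups were paired. With the number as a replicate block, 63 of 63 enzyme values kept direction and call, and 2 member unigenes passed in PEG2 in place of 1.

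With 2 libraries a group and no fragment counts, low unigenes carry unknown counting error, and 130 of the 225 tested members had a mean under 1 FPKM. In PEG2 replicate 1 the 10 most abundant unigenes took 19.1% of the FPKM, against 9.86% to 13.5% elsewhere, and without it 0 enzymes and 2 member unigenes passed in PEG2.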

Other observations

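The KO sums of glyceraldehyde-3-phosphate dehydrogenase, a common reference gene of quantitative PCR, spanned a wide range in these libraries. The glycolytic form (K00134) differed by log2 fold changes of 3.89 in Nacl2 and 1.61 in Nacl1 relative to CK18, and of -4.25 in CK18 relative to CK0 (limma, adjusted p = 4.75e-06, 0.00262 and 7.78e-07).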
